A study of Homo sapiens with 9 samples.

Results

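The 7 genes described here encode the core of the cadherin-catenin adhesion complex: the classical cadherins CDH1 (E-cadherin), CDH2 (N-cadherin) and CDH3 (P-cadherin), the endothelial cadherin CDH5 (VE-cadherin), and the catenins CTNNB1 (beta-catenin), CTNNA1 (alpha-E-catenin) and CTNND1 (p120-catenin). They were found by gene symbol, 7 of 58735 genes in the count table, and all 7 were among the 16812 genes with enough counts to test. The members were chosen by name with results of these libraries known, the measured counts of CDH5 in the knockdown group against control among them. For the 7 members that contrast is therefore given as a description without a test, and so is CDH5 in every contrast, while genes that are no members were tested in all contrasts.

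RNA was sequenced in bulk from FaDu, a human squamous carcinoma cell line of the hypopharynx grown in serum-containing medium, in 9 libraries that form 3 groups of 3 biological replicates. By their labels, the KD_OE group carried an AMIGO2 knockdown together with CAPN2 overexpression, the KD_NC group the AMIGO2 knockdown, and the NC_NC group was a normal control of WT genotype; the treatment entry was "None" throughout. AMIGO2 encodes a leucine-rich-repeat adhesion protein of the cell surface, and CAPN2 the catalytic subunit of calpain-2, a calcium-dependent protease. How the knockdown and the overexpression were made, and whether each group was a clone or a pool, is not given in the sources used here. All groups derive from 1 cell line, so p-values measure the spread between cultures of that line.

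Classical cadherins are transmembrane proteins that bind cadherins of the neighbouring cell in a calcium-dependent way. Their cytoplasmic tail binds p120-catenin near the membrane, which slows removal of the cadherin from the surface, and beta-catenin further along the tail. Beta-catenin in turn binds alpha-catenin, which connects the complex to actin, and beta-catenin outside the junction acts as a transcriptional coactivator in Wnt signalling. In stratified squamous epithelium E-cadherin is present through the living layers and P-cadherin mainly in the basal layer. N-cadherin is typical of neural and mesenchymal cells, and VE-cadherin of endothelial cells.

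Library totals ran from 15158607 to 19737562 counts, at which 3 counts correspond to between 0.149 and 0.203 CPM (counts scaled to library size and TMM factors, which set the libraries to a common level). These limits cover counting error only. AMIGO2 RNA was 42.8, 35.3 and 38.8 CPM in KD_OE libraries, 24.5, 31.3 and 27.3 CPM in KD_NC libraries and 29.5, 26.1 and 27.2 CPM in NC_NC libraries. It was thus not lower in the KD_NC libraries than in the NC_NC libraries (log2 fold change 0.006 ± 0.115 SE, edgeR adjusted p = 0.971), and it was higher in the KD_OE libraries than in the NC_NC libraries (0.50 ± 0.114, adjusted p = 0.00106), so groups are named here by their label codes. CAPN2 was 498, 498 and 500.2 CPM in KD_OE libraries, against 395, 424 and 435 CPM in KD_NC libraries (0.26 ± 0.0794, adjusted p = 0.0120) and 447, 474 and 466 CPM in NC_NC libraries (0.11 ± 0.0794, adjusted p = 0.254). All 12 squamous epithelial markers were detected, and their summed level ran from 6103 to 6803 CPM in KD_OE libraries, from 6290 to 7728 CPM in KD_NC libraries and from 11441 to 12025 CPM in NC_NC libraries. Across all genes, the log2 fold change fell with the GC content of the gene, with Spearman correlations over the 16812 genes of -0.084 for KD_OE against KD_NC, -0.289 for KD_OE against NC_NC and -0.364 for KD_NC against NC_NC.

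Apart from CDH5, 6 members were tested in the contrasts with the KD_OE group. Against KD_NC, 2 of the 6 were higher (CDH1 and CDH3), 1 was lower (CTNNB1) and 3 did not pass the test, where 49.2% of all genes tested were called (23.7% higher and 25.6% lower). Against NC_NC, 3 of the 6 were higher (CDH1, CDH2 and CDH3), 2 were lower (CTNNB1 and CTNND1) and 1 did not pass (CTNNA1), where 56.3% of all genes were called (27.9% higher and 28.4% lower). In KD_NC against NC_NC, the contrast behind the choice of members, no count of called members and no median of the members is given. Members without overlap between the groups are counted below for that contrast too, as a description from which nothing is read. Of all genes, 34.6% were called there (16.0% higher and 18.5% lower). The libraries of the contrasted groups did not overlap for 4 of 7 members in KD_OE against KD_NC, 5 of 7 in KD_OE against NC_NC and 5 of 7 in KD_NC against NC_NC, beside 54.0%, 66.9% and 44.7% of all genes; these counts hold CDH5 and are a description. Without CDH5, the median log2 fold change of the 6 tested members was -0.006 in KD_OE against KD_NC and 0.16 in KD_OE against NC_NC. The medians over all genes were 0.009 and 0.02. The 3 of 6 called against KD_NC and the 5 of 6 called against NC_NC are counts of few genes, chosen with results known. Of the latter, CTNNB1 lost its call in 5 of 12 alternative analyses. Nothing particular to the members is read from these medians, or from these counts beside the shares of 49.2% and 56.3%. In CPM, the members differed in which group stood apart. It was the KD_OE group for CDH1, the NC_NC group for CDH2 and CTNND1, and the KD_NC group for CDH5. For CTNNA1 all groups overlapped.

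**Figure D1:**
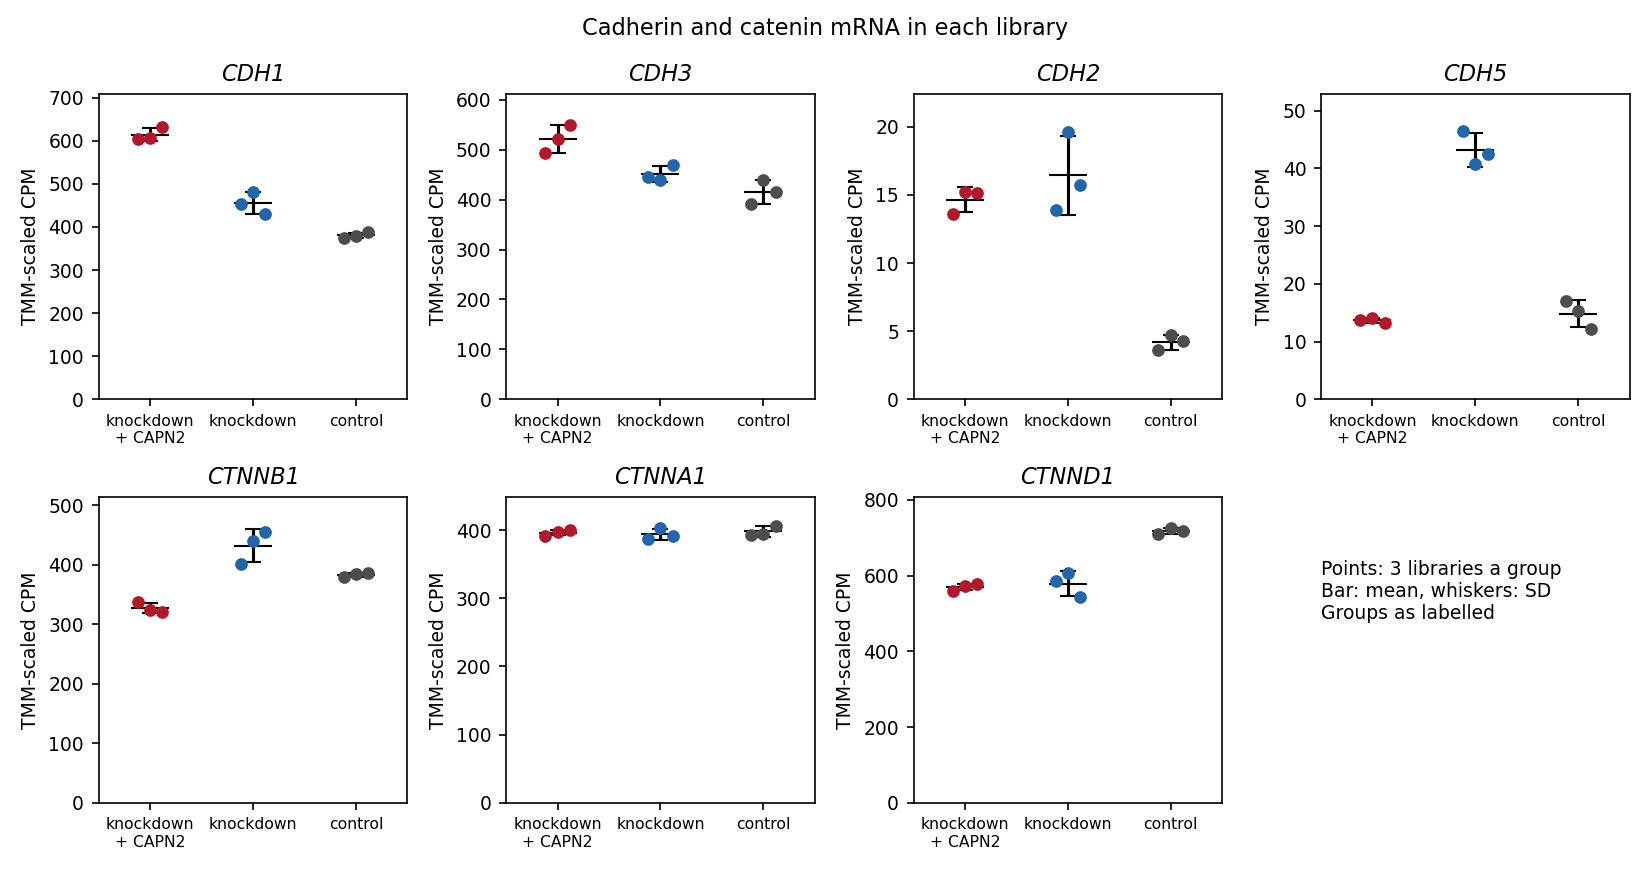
TMM-scaled CPM of the 7 members, 1 panel a gene, with 1 point per library a bar at the mean of each group of 3 and SD whiskers; the axis writes KD_OE as knockdown + CAPN2, KD_NC as knockdown and NC_NC as control. CDH5 lies between 40.7 and 46.4 CPM in KD_NC libraries and at or below 17.0 CPM in the other libraries, whereas CDH2 is low in the NC_NC libraries alone, at or below 4.72 CPM.

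RefSeq promoters (GRCh38.p14) matched 3 of the 7 members, namely CDH2, CTNNB1 and CTNNA1. CDH2 and CTNNB1 are shown because CDH2 had the largest change against control of the tested members and CTNNB1 separated all groups; each line holds the 250 bases before the start site, chr18:28177131-28177380 on the minus strand for CDH2 (the first of 2 sites) and chr3:41199255-41199504 on the plus strand for CTNNB1. Capitals mark matches of the GC box or the CCAAT box on either strand.
CDH2: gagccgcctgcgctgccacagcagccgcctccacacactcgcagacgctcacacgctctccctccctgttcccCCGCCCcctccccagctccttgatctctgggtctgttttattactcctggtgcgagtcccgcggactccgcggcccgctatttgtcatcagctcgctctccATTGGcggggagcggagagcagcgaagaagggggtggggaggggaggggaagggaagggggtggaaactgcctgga
CTNNB1: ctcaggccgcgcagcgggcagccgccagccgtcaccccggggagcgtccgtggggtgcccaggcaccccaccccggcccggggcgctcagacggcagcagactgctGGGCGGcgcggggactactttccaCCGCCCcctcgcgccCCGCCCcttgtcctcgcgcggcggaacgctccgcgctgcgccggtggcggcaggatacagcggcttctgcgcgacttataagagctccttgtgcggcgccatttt
On both strands, 4 motifs were searched: the E-box CAGGTG bound by repressors such as SNAI1 and ZEB1, the GC box GGGCGG, the TATA box TATAAA and the CCAAT box CCAAT. The CDH2 window held 1 GC box and 1 CCAAT box, and the CTNNB1 window 3 GC boxes and no CCAAT box. Windows of the same length held a GC box in 42.6%, a CCAAT box in 32.0%, a TATA box in 10.7% and the E-box in 17.5% of 35116 RefSeq promoters. Neither printed window held the E-box or the TATA box, which says only that these letters are not in these 250 bases. The other CDH2 site had 1 TATA box and 1 CCAAT box, and the 4 CTNNA1 sites had 9, 4, 0 and 0 GC boxes.

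CDH1, which encodes the main cadherin of epithelial cells, was highest in the KD_OE libraries. It was 604, 607 and 632 CPM in KD_OE libraries, 453, 481 and 429.9 CPM in KD_NC libraries and 375, 380.2 and 387 CPM in NC_NC libraries. No library of a group overlapped with those of another. CDH1 rose 1.35-fold in KD_OE against KD_NC (log2 fold change 0.43 ± 0.0803 SE, edgeR adjusted p = 0.000184) and 1.61-fold against NC_NC (0.69 ± 0.0806, adjusted p = 6.47e-07), while KD_NC stood 0.26 ± 0.0803 above NC_NC. The rise was not unusual in size among all genes, since 36.8% of genes tested had a larger change of either sign in KD_OE against NC_NC. In bulk RNA, more cells that hold a transcript and more of it per cell cannot be told apart, here and for the other members.

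CDH3, the neighbouring P-cadherin gene, was also highest in the KD_OE libraries, by less. Its levels were 494, 522 and 549 CPM in KD_OE libraries, 446, 439 and 469 CPM in KD_NC libraries and 391, 439.9 and 416 CPM in NC_NC libraries. The KD_OE libraries lay above all others, and the KD_NC and NC_NC libraries overlapped. CDH3 rose 1.26-fold in KD_OE against NC_NC (0.33 ± 0.0832, edgeR adjusted p = 0.00241), a change that became 0.50 after correction for GC content and length. Against KD_NC it rose 1.16-fold (0.21 ± 0.0831, adjusted p = 0.0441), a call that was lost in 8 of 12 alternative analyses, among them those without KD_OE replicate 1, 2 or 3 (adjusted p = 0.0775, 0.121 and 0.171) and without KD_NC replicate 1 or 2 (adjusted p = 0.0699 and 0.152). KD_NC stood 0.12 ± 0.0832 above NC_NC, or 0.27 after the same correction. The summed squamous markers were lower in the KD_OE and KD_NC libraries than in the NC_NC libraries, whereas CDH1 stood higher in both and CDH3 in the KD_OE libraries. KRT5 alone was 1616 ± 121 CPM in KD_OE libraries, 1207 ± 180 CPM in KD_NC libraries and 4437 ± 133 CPM in NC_NC libraries. Of the 12 markers, 9 were lower and 1 higher in KD_OE against NC_NC, beside 28.4% and 27.9% of all genes. In KD_NC against NC_NC, 8 were lower and 4 did not pass, where 18.5% of all genes were lower. The part of the marker genes in these values was not tested.

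CDH2 was low in the control and higher in both groups labelled as knockdown. It was 13.6, 15.2 and 15.1 CPM in KD_OE libraries, 13.9, 19.6 and 15.8 CPM in KD_NC libraries and 3.59, 4.72 and 4.24 CPM in NC_NC libraries, where the NC_NC values rest on 53 to 80 counts a library. The NC_NC libraries did not overlap with any other, and the KD_OE and KD_NC libraries overlapped. CDH2 rose 3.49-fold in KD_OE against NC_NC (1.80 ± 0.163, edgeR adjusted p = 2.42e-08), and KD_NC stood 3.92-fold above NC_NC (1.97 ± 0.161). Between KD_OE and KD_NC the log2 difference was -0.17 ± 0.143 (adjusted p = 0.347), with a 95% interval from -0.467 to 0.130. Even at its highest the N-cadherin transcript remained a minor one, at 4.50 ± 0.630 per 100 CDH1 transcripts in KD_NC libraries on the TPM scale, which divides by gene length.

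CDH5 was higher in the KD_NC libraries than in either other group. Its levels were 13.7, 14.1 and 13.2 CPM in KD_OE libraries, 46.4, 40.7 and 42.5 CPM in KD_NC libraries and 17.0, 15.3 and 12.2 CPM in NC_NC libraries. These rest on 222, 239 and 215 counts in KD_OE libraries, 797, 818 and 725 in KD_NC libraries and 251, 260 and 199 in NC_NC libraries. The KD_NC libraries lay above all others, and the KD_OE and NC_NC libraries overlapped. KD_OE stood 3.16-fold below KD_NC (log2 fold change -1.66 ± 0.123), and KD_NC stood 2.91-fold above NC_NC (1.54 ± 0.122). KD_OE differed from NC_NC by -0.12 ± 0.128, which became 0.07 after correction for GC content and length. Exons of CDH5 shared no bases with another gene, and those of CTNNB1 shared none either. The other members shared at most 11.1% of their exon bases with a neighbour, and the largest such neighbour had 229 counts over all libraries, against 94138 for CTNND1.

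**Figure D2:**
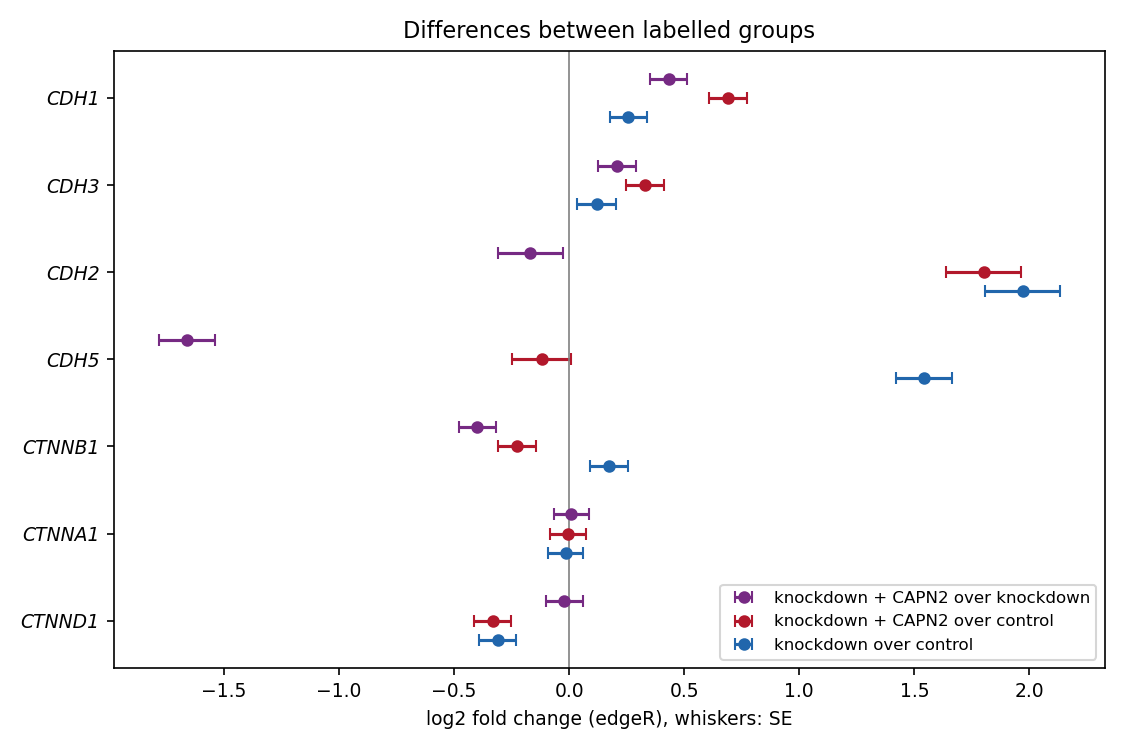
Log2 fold changes of the 7 members in KD_OE against KD_NC, KD_OE against NC_NC and KD_NC against NC_NC, with bars of 1 SE from edgeR; a value above 0 is higher in the group named before "over" in the legend. CDH5 is at -1.66 in KD_OE against KD_NC and at 1.54 in KD_NC against NC_NC, CDH2 is at 1.80 and 1.97 in the contrasts with NC_NC, and the other members lie between -0.40 and 0.69.

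Set against the epithelial cadherins, CDH5 followed neither of them. Per 100 CDH1 transcripts (ratios of TPM within a library), CDH5 was 2.26 ± 0.131 in KD_OE libraries, 9.68 ± 0.955 in KD_NC libraries and 3.97 ± 0.705 in NC_NC libraries (SD, n = 3 each). No library of one group reached another group on this ratio: the KD_OE libraries, with the most CDH1, were below the NC_NC libraries, although CDH5 itself overlapped between these groups. Per 100 CDH3 transcripts the values were 2.69 ± 0.205, 9.82 ± 0.752 and 3.68 ± 0.722 in KD_OE, KD_NC and NC_NC libraries, in the same order. CDH5 per CDH2 transcript was 0.761 ± 0.0568 in KD_OE libraries, 2.20 ± 0.512 in KD_NC libraries and 2.95 ± 0.798 in NC_NC libraries. With the deposited gene length, CDH2 thus stood above CDH5 only in the KD_OE libraries. That order depends on the length used. With the longest coding transcript of GENCODE as length, CDH5 and CDH2 were nearly level in KD_OE libraries, at 2.64 and 2.69 per 100 CDH1. The ratio of CDH3 to CDH1 was 0.841 ± 0.0261 in KD_OE libraries, 0.986 ± 0.0896 in KD_NC libraries and 1.081 ± 0.0583 in NC_NC libraries. Being ratios that contain CDH5 or follow from levels already given, these values are descriptions without a test.

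The sum of the 4 cadherins was 683 ± 22.7 TPM in KD_OE libraries, 529 ± 37.6 TPM in KD_NC libraries and 430.1 ± 7.22 TPM in NC_NC libraries, and the groups did not overlap. TPM was not TMM-scaled, so levels in TPM and CPM can differ between groups. CTNNA1, at 397, 394 and 398 CPM in KD_OE, KD_NC and NC_NC libraries, was 163, 151 and 147 TPM. CDH1 and CDH3 made up nearly all of the sum. CDH1 was 52.8% ± 0.756 of the sum in KD_OE libraries, 47.1% ± 2.07 in KD_NC libraries and 46.9% ± 1.29 in NC_NC libraries, and CDH3 was 44.4% ± 0.755, 46.3% ± 2.14 and 50.6% ± 1.32 in the same libraries. CDH5 was 1.19% ± 0.0766 of the sum in KD_OE libraries, 4.54% ± 0.353 in KD_NC libraries and 1.86% ± 0.339 in NC_NC libraries, and CDH2 was 1.57% ± 0.0682, 2.12% ± 0.345 and 0.641% ± 0.0662.

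**Figure D3:**
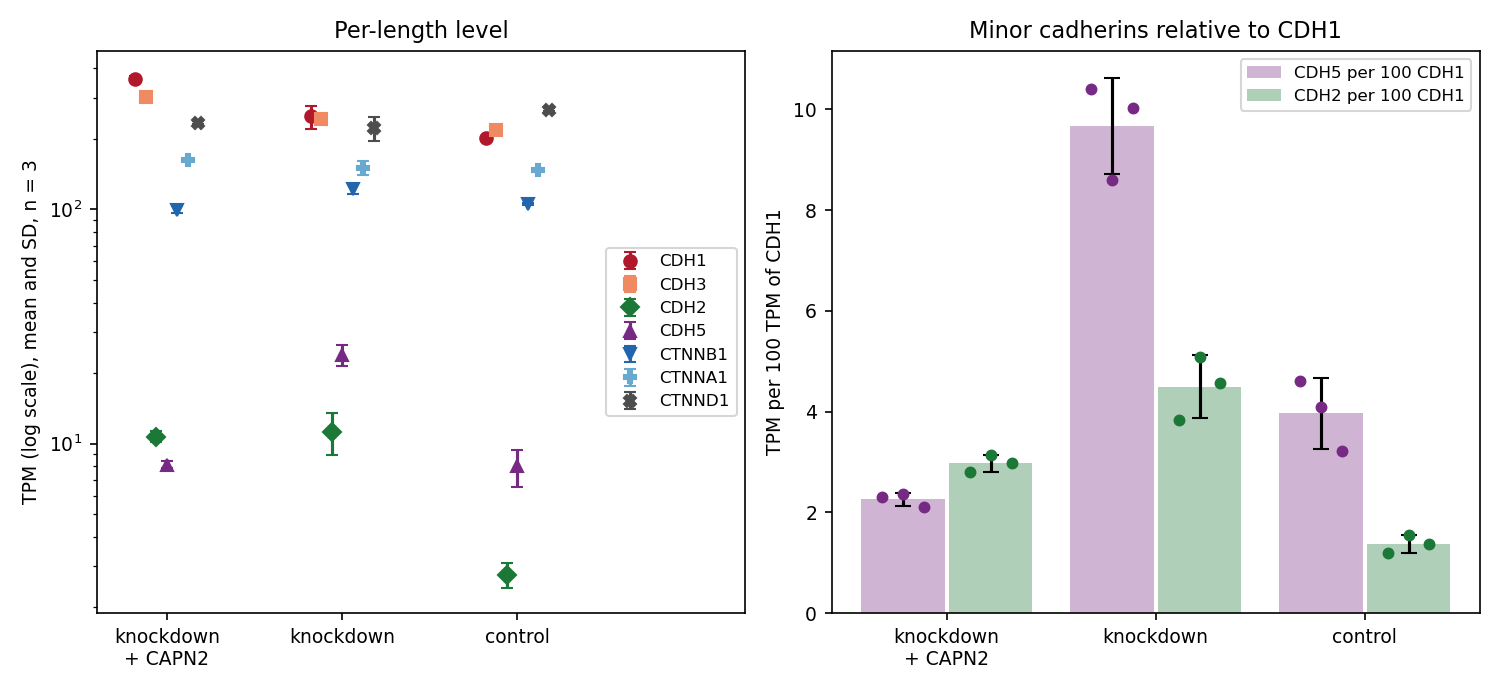
Left, mean TPM of the 7 members in each group on a log axis, with SD over 3 libraries; right, CDH5 and CDH2 per 100 CDH1 (TPM), with a bar at the mean, SD and 1 point per library, with the same group names. CDH5 reaches 9.68 per 100 CDH1 in KD_NC libraries, against 3.97 in NC_NC libraries, and stands at 2.26 in KD_OE libraries.

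Among the catenins, CTNNB1 was the one that separated all groups. It was 338, 325 and 321 CPM in KD_OE libraries, 401, 440.0 and 456 CPM in KD_NC libraries and 379, 386 and 386 CPM in NC_NC libraries, and the groups did not overlap. CTNNB1 was 1.32-fold lower in KD_OE than in KD_NC (-0.40 ± 0.0811, edgeR adjusted p = 0.000449), which became -0.59 after correction for GC content and length. KD_NC stood 0.17 ± 0.0809 above NC_NC, or 0.09 with that correction. Against NC_NC, the KD_OE libraries were 1.17-fold lower (-0.23 ± 0.0811, adjusted p = 0.0231), a difference that became -0.50 after correction for GC content and length and -0.12 with upper-quartile factors (adjusted p = 0.2001). That call was also lost without KD_OE replicate 2 or 3 (adjusted p = 0.0792 and 0.0679) and without NC_NC replicate 2 or 3 (adjusted p = 0.0572 and 0.0667).

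CTNND1, which encodes the catenin that holds cadherins at the surface, was highest in the control. Its levels were 560.0, 571 and 577 CPM in KD_OE libraries, 587, 606 and 542 CPM in KD_NC libraries and 710.4, 725 and 717 CPM in NC_NC libraries. All NC_NC libraries lay above all others, and the KD_OE and KD_NC libraries overlapped. CTNND1 was 1.26-fold lower in KD_OE than in NC_NC (-0.33 ± 0.0800, edgeR adjusted p = 0.00155), and KD_NC stood 1.24-fold below NC_NC (-0.31 ± 0.0799). The difference between KD_OE and KD_NC was -0.02 ± 0.0799 (adjusted p = 0.841), with a 95% interval from -0.189 to 0.145.

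CTNNA1, the link to actin, was 392, 397 and 400.5 CPM in KD_OE libraries, 387, 403 and 392 CPM in KD_NC libraries and 393, 395 and 407 CPM in NC_NC libraries, and all 3 groups overlapped. The 95% interval of the log2 difference ran from -0.151 to 0.171 for KD_OE against KD_NC (edgeR adjusted p = 0.925) and from -0.167 to 0.156 for KD_OE against NC_NC (adjusted p = 0.956). The catenins did not follow the summed level of the cadherins that they bind. Per transcript of the 4 cadherins, CTNND1 was 0.344 ± 0.00752 in KD_OE libraries, 0.420 ± 0.0195 in KD_NC libraries and 0.620 ± 0.0147 in NC_NC libraries, without overlap. CTNNB1 was 0.146 ± 0.00896 per cadherin transcript in KD_OE libraries, 0.232 ± 0.0150 in KD_NC libraries and 0.245 ± 0.00611 in NC_NC libraries, where the KD_NC and NC_NC libraries overlapped. CTNNA1 was 0.239 ± 0.00623 in KD_OE libraries, 0.285 ± 0.00274 in KD_NC libraries and 0.343 ± 0.0116 in NC_NC libraries, with no overlap. Its own CPM overlapped between the 3 groups. In TPM, the scale of the ratio, its KD_OE libraries (161.5 to 164.3) lay above those of KD_NC (138.9 to 159.7) and NC_NC (144.5 to 149.0). These ratios depend on the length assigned to each gene. With the longest coding transcript of GENCODE in place of all exons joined, CTNNA1 per cadherin transcript would be 0.435, 0.517 and 0.624 in KD_OE, KD_NC and NC_NC libraries, and CTNNB1 0.291, 0.459 and 0.486, in the same order of groups.

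On the TPM scale, the order of levels in KD_OE libraries was CDH1 (361 ± 9.37), CDH3 (303 ± 14.4), CTNND1 (235 ± 2.63), CTNNA1 (163 ± 1.39), CTNNB1 (99.7 ± 3.51), CDH2 (10.7 ± 0.579) and CDH5 (8.14 ± 0.267), with no overlap between neighbours. In KD_NC libraries CDH1 (249 ± 28.1), CDH3 (244 ± 7.53) and CTNND1 (223 ± 25.7) overlapped, followed by CTNNA1 (151 ± 10.7), CTNNB1 (122 ± 5.95), CDH5 (24.0 ± 2.49) and CDH2 (11.2 ± 2.27). In NC_NC libraries CTNND1 (267 ± 3.72) led CDH3 (218 ± 9.30), CDH1 (202 ± 2.22), CTNNA1 (147 ± 2.55), CTNNB1 (105 ± 1.19), CDH5 (7.998 ± 1.43) and CDH2 (2.76 ± 0.327). CDH1 thus led in KD_OE libraries and stood below CTNND1 and CDH3 in NC_NC libraries. The order within a library likewise depends on the length used. CDH2 and CDH5 would be nearly level in KD_OE libraries with the longest coding transcript, so their order there rests on the deposited length. With the longest coding transcript, CTNNA1 would stand at 375, 347 and 340 TPM in KD_OE, KD_NC and NC_NC libraries. In KD_OE libraries it would then be above CTNND1 (315 TPM) and below CDH1 (456 TPM) and CDH3 (384 TPM). In KD_NC libraries its mean would be the highest of the 7, above CDH1 (315 TPM), CDH3 (309 TPM), CTNNB1 (308 TPM) and CTNND1 (299 TPM). In NC_NC libraries it would be below CTNND1 (358 TPM) and above CDH3 (276 TPM), CTNNB1 (265 TPM) and CDH1 (255 TPM).

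The members lie on 5 chromosomes (GRCh38 coordinates of the deposited table). CDH1 (chr16:68737225-68835548) and CDH3 (chr16:68636189-68722616) are adjacent on the plus strand, with a gap of 14.6 kb. CDH5 (chr16:66366622-66404786) lies on the same strand 2231 kb before CDH3. CDH2 is at chr18:27950966-28177446 on the minus strand, and CTNNB1 (chr3:41194741-41260096), CTNNA1 (chr5:138610967-138935034) and CTNND1 (chr11:57753243-57819546) are on the plus strand. Of the 8 tested genes within 250 kb of CDH5, 2 were called higher in KD_NC against NC_NC, where 16.0% of all genes were, and they are named after their values were seen. CMTM3, a chemokine-like-factor family gene 199 kb away, stood 0.98 ± 0.145 higher in KD_NC than in NC_NC and fell by 0.82 in KD_OE against KD_NC. LINC00920, a noncoding gene 3.74 kb away, stood 0.80 ± 0.221 higher in KD_NC than in NC_NC, and its difference of -0.42 ± 0.214 in KD_OE against KD_NC did not pass the test.

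Genes were also compared with each member by their pattern over the 9 libraries, as the root mean square difference of centred log2 CPM, among 10366 genes. Nearest to CDH5 were TCAF2, a TRP channel-associated gene (0.118), FST, which encodes the activin-binding follistatin (0.140), MMP13, a collagenase (0.163), PTHLH, parathyroid hormone-like hormone (0.218), and TIMP2, a metalloproteinase inhibitor (0.218), where the median gene was at 0.805. MMP13 was 155 ± 5.92 CPM in KD_OE libraries, 533 ± 44.8 CPM in KD_NC libraries and 164 ± 6.89 CPM in NC_NC libraries. Nearest to CDH2 were BTF3L4 (0.167), the chemokine gene CXCL8 (0.212) and the matrix gene TNC (0.222), with a median of 0.959. TNC, which encodes tenascin-C, was 34.3 ± 2.92 CPM in KD_OE libraries, 39.2 ± 6.98 CPM in KD_NC libraries and 10.7 ± 0.435 CPM in NC_NC libraries. The 3 nearest to CDH1 were TRIM5, MCFD2 and SYNRG, to CDH3 TAP1, STT3A and PI4K2A, to CTNNB1 CUL1, NVL and MCU, to CTNND1 WDR37, C12orf49 and B3GALNT2, and to CTNNA1 ZRANB1, ZDHHC7 and PIP4K2C.

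Of 31 listed partners and regulators of the junction, 28 were tested. In KD_OE against KD_NC, 7 rose, 6 fell and 15 did not pass, with a median of -0.04, where 49.2% of all genes were called. Against NC_NC, 12 rose, 9 fell and 7 did not pass in KD_OE (median 0.15), where 56.3% of all genes were called, and 11 rose, 7 fell and 10 did not pass in KD_NC (median 0.10), where 34.6% were called. The list was drawn up with results known, and nothing particular to it is read from these counts, nor from those of the lists that follow. ARVCF, a p120-catenin relative, was 14.4 ± 3.44 CPM in KD_OE libraries, 7.07 ± 1.04 CPM in KD_NC libraries and 4.11 ± 0.436 CPM in NC_NC libraries, and rose 3.49-fold in KD_OE against NC_NC (1.80 ± 0.189, edgeR adjusted p = 1.58e-07). FER, a tyrosine kinase that binds p120-catenin, rose 2.45-fold in KD_OE against KD_NC (1.29 ± 0.143, adjusted p = 5.68e-07) and 2.49-fold against NC_NC (1.31 ± 0.144, adjusted p = 2.92e-07). VEZT, which encodes the junction protein vezatin, rose 1.85-fold in KD_OE against NC_NC, and PTPRK, a receptor phosphatase of junctions, rose 1.51-fold in KD_OE against KD_NC.

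Other junction genes fell in the KD_OE libraries. JUP (plakoglobin), which can take the place of beta-catenin on the cadherin tail, was 386 ± 38.2 CPM in KD_OE libraries, 460.2 ± 51.9 CPM in KD_NC libraries and 665 ± 23.0 CPM in NC_NC libraries, 1.72-fold lower in KD_OE than in NC_NC (-0.78 ± 0.0969, edgeR adjusted p = 1.32e-06). NECTIN2, a nectin of the same junctions, was 2.20-fold lower in KD_OE than in NC_NC and 1.95-fold lower in KD_NC than in NC_NC. CTNNBIP1, an inhibitor of beta-catenin in transcription, was 1.42-fold lower in KD_OE than in KD_NC and 1.78-fold lower than in NC_NC. LIMA1, an actin-binding partner of alpha-catenin, was 1.75-fold lower and RHOA, a small GTPase of actin control, 1.60-fold lower in KD_OE than in KD_NC. In KD_NC against NC_NC, the alpha-catenin relative CTNNAL1 rose 2.38-fold, and the receptor phosphatases PTPRB (VE-PTP, known as a partner of VE-cadherin) and PTPRM rose 2.74-fold and 2.71-fold, both from low levels; PTPRB was 3.38 ± 0.420 CPM in KD_OE libraries, 4.70 ± 0.829 CPM in KD_NC libraries and 1.72 ± 0.330 CPM in NC_NC libraries (adjusted p = 0.000105 in KD_NC against NC_NC). CTNNAL1, PTPRB and PTPRM were also higher in KD_OE than in NC_NC (1.98-fold, 1.97-fold and 2.07-fold). In KD_OE against KD_NC they did not pass the test (edgeR adjusted p = 0.0613, 0.0735 and 0.146). NECTIN1 and PKP4, another p120-catenin relative, fell 1.58-fold and 1.51-fold in KD_NC against NC_NC.

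**Figure D4:**
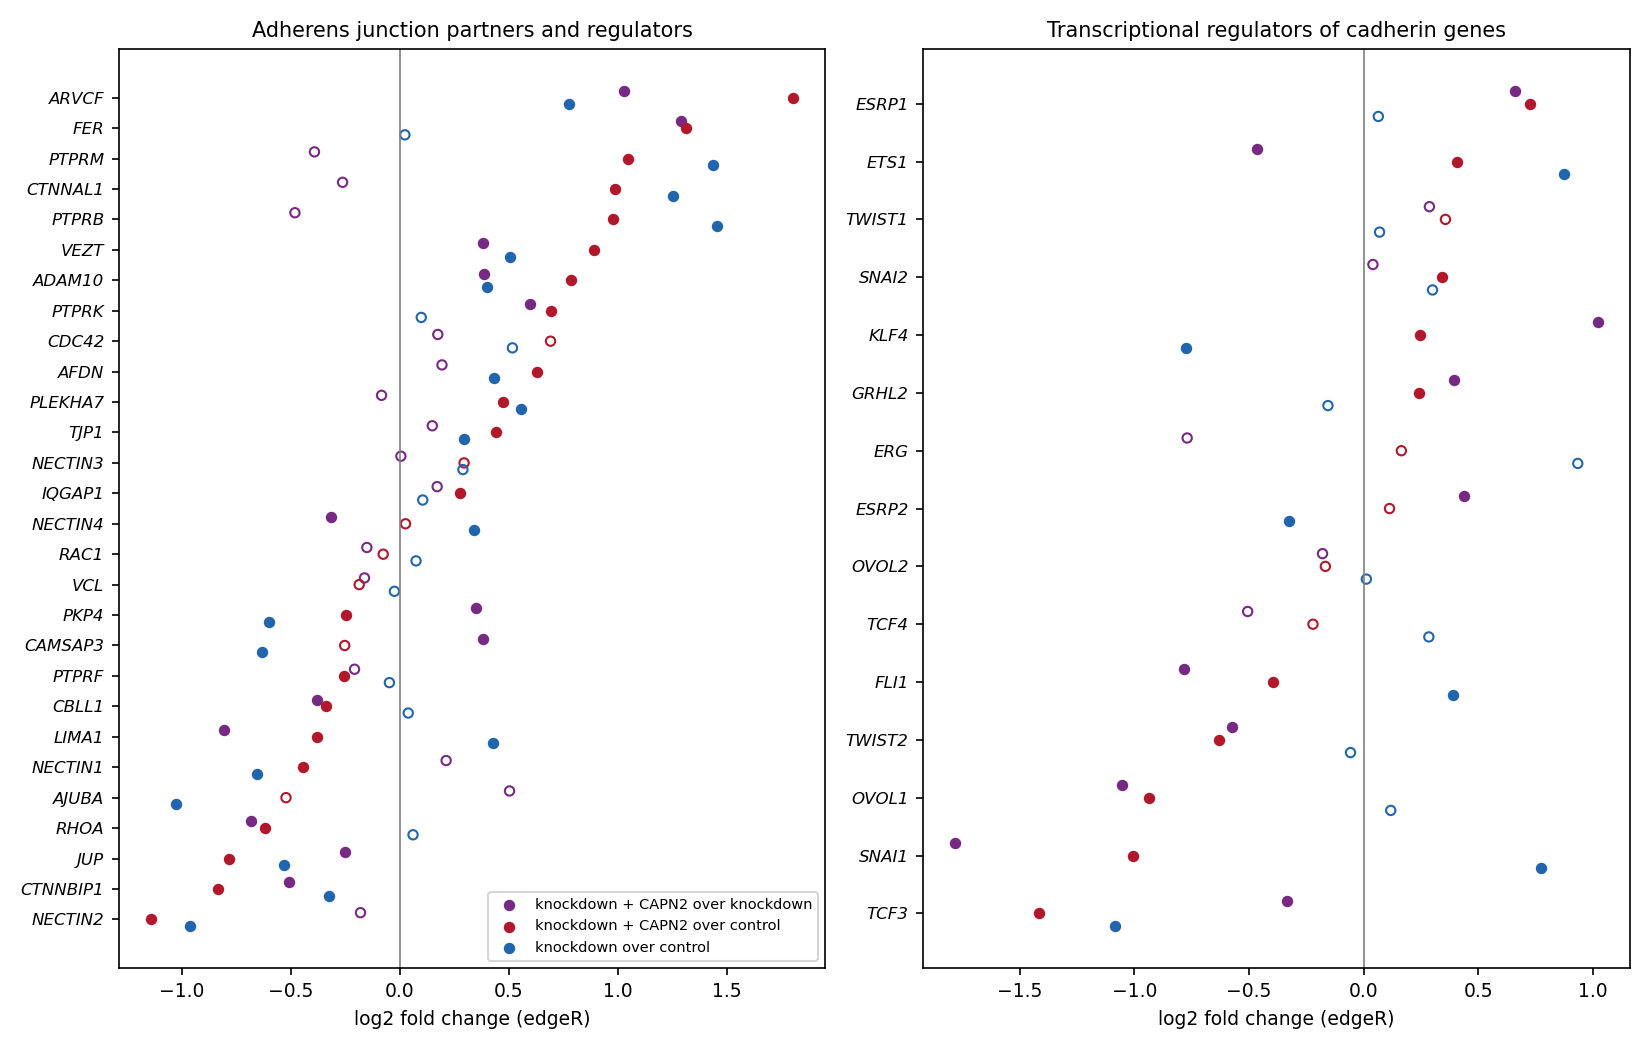
Log2 fold changes of the tested genes among junction partners (left, 28 genes) and transcriptional regulators of cadherin genes (right, 15 genes) in KD_OE against KD_NC, KD_OE against NC_NC and KD_NC against NC_NC; 1 point a gene and contrast, filled where edgeR's adjusted p was under 0.05 and open where it was not. Genes of both lists lie on both sides of 0, with 7 higher and 6 lower among 28 junction genes in KD_OE against KD_NC.

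Of 18 other cadherins, 5 were past the filter on low counts and their median log2 fold changes were 0.22 in KD_OE against KD_NC, 0.29 in KD_OE against NC_NC and 0.08 in KD_NC against NC_NC. In KD_OE against KD_NC 2 rose and 2 fell, against NC_NC 1 rose and 1 fell, and in KD_NC against NC_NC 2 rose and 1 fell, beside 49.2%, 56.3% and 34.6% of all genes called. CDH13 (T-cadherin, which has no cytoplasmic tail) was 8.11 ± 0.937 CPM in KD_OE libraries, 3.49 ± 0.719 CPM in KD_NC libraries and 3.27 ± 0.955 CPM in NC_NC libraries, and rose 2.33-fold against KD_NC (1.22 ± 0.212, edgeR adjusted p = 9.85e-05) and 2.46-fold against NC_NC. CDH24 was 19.5 ± 1.68 CPM in KD_OE libraries, 35.4 ± 2.58 CPM in KD_NC libraries and 25.97 ± 1.20 CPM in NC_NC libraries, lower in KD_OE than in KD_NC (-0.86 ± 0.109, adjusted p = 2.86e-06); its fall against NC_NC was lost after correction for GC content and length (-0.02, adjusted p = 0.859). CDH11, a mesenchymal cadherin, was 0.422 ± 0.149 CPM in KD_OE libraries, 2.13 ± 0.0725 CPM in KD_NC libraries and 0.173 ± 0.146 CPM in NC_NC libraries, where the last is about the level of 3 counts, so no fold is given against it. CDH4 (R-cadherin) was 2.73 ± 0.455, 1.34 ± 0.729 and 3.20 ± 0.975 CPM in KD_OE, KD_NC and NC_NC libraries; its rise in KD_OE against KD_NC was lost without KD_OE replicate 1 or 2 or KD_NC replicate 3 (log2 fold change 0.89, 0.93 and 0.64, adjusted p = 0.0780, 0.0667 and 0.109), and its fall in KD_NC against NC_NC without NC_NC replicate 3 (-0.99, adjusted p = 0.0603).

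Of 20 listed transcriptional regulators of cadherin genes, 15 were tested, and 4 rose, 6 fell and 5 did not pass in KD_OE against KD_NC. Against NC_NC, 5 rose, 5 fell and 5 did not pass in KD_OE, and 3 rose, 3 fell and 9 did not pass in KD_NC. The shares of all genes called in these contrasts were 49.2%, 56.3% and 34.6%. The list's medians were -0.33, 0.11 and 0.07 in KD_OE against KD_NC, KD_OE against NC_NC and KD_NC against NC_NC. KLF4, an epithelial differentiation factor, was 2.03-fold higher in KD_OE than in KD_NC (1.02 ± 0.103, edgeR adjusted p = 1.94e-07). Against NC_NC it was 1.19-fold higher in KD_OE (0.25 ± 0.101, adjusted p = 0.0456), a call lost in 8 of 12 alternatives, among them the 6 that leave out 1 KD_OE or NC_NC library (adjusted p from 0.0646 to 0.166), and 1.71-fold lower in KD_NC. ESRP1, an epithelial splicing factor, was 1.58-fold higher in KD_OE than in KD_NC and 1.65-fold higher than in NC_NC. GRHL2, known to activate CDH1, was 1.32-fold higher in KD_OE than in KD_NC (0.40 ± 0.0810, adjusted p = 0.000482). OVOL1, another epithelial factor, was 2.08-fold lower in KD_OE than in KD_NC, and its relative OVOL2 did not pass the test (-0.18 ± 0.147, adjusted p = 0.334). SNAI1, a repressor of CDH1, was 0.892 ± 0.343 CPM in KD_OE libraries, 3.09 ± 0.476 CPM in KD_NC libraries and 1.80 ± 0.251 CPM in NC_NC libraries, and it was lower in KD_OE than in KD_NC (-1.78 ± 0.307, adjusted p = 8.80e-05). SNAI2, at 35.9, 34.9 and 28.3 CPM in KD_OE, KD_NC and NC_NC libraries, did not fall with it. It did not pass in KD_OE against KD_NC (0.04 ± 0.125, edgeR adjusted p = 0.811). Against NC_NC it was higher in KD_OE (0.34 ± 0.127, adjusted p = 0.0280). TWIST1 passed in neither contrast, TWIST2 was lower in KD_OE in both (1.49-fold and 1.55-fold), and ZEB1 and ZEB2 had too few counts to test. TCF3, which encodes the E-box-binding factor E2A, was 2.67-fold lower in KD_OE and 2.12-fold lower in KD_NC than in NC_NC.

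The same list held ETS1, FLI1 and ERG, which encode transcription factors of the ETS family. ETS1 was 224 ± 7.91 CPM in KD_OE libraries, 309 ± 27.2 CPM in KD_NC libraries and 169 ± 6.02 CPM in NC_NC libraries; it rose 1.33-fold in KD_OE (0.41 ± 0.0860, edgeR adjusted p = 0.000495) and 1.83-fold in KD_NC (0.87 ± 0.0863, adjusted p = 3.87e-07) against NC_NC. FLI1 was 7.27 ± 0.340 CPM in KD_OE libraries, 12.5 ± 0.931 CPM in KD_NC libraries and 9.57 ± 0.208 CPM in NC_NC libraries, and was 1.72-fold lower in KD_OE than in KD_NC (-0.78 ± 0.134, adjusted p = 7.87e-05). ERG was 1.19 ± 0.651, 2.04 ± 0.0889 and 1.07 ± 0.390 CPM in KD_OE, KD_NC and NC_NC libraries, and did not pass the test in any contrast. The rises of FLI1 and SNAI1 in KD_NC against NC_NC (0.39 ± 0.131, adjusted p = 0.0269, and 0.77 ± 0.281, adjusted p = 0.0390) were not stable to leaving out libraries: FLI1 lost the call without KD_NC replicate 1 and without each NC_NC replicate (0.33 to 0.40, adjusted p from 0.0705 to 0.0854), and SNAI1 without KD_NC replicate 1 or 3 and without each NC_NC replicate (0.67 to 0.86, adjusted p from 0.0597 to 0.145).

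The complex that marks beta-catenin for degradation was tested with 7 of its 8 listed genes, of which 2 rose and 2 fell in KD_OE against each of KD_NC and NC_NC, and 1 rose and 2 fell in KD_NC against NC_NC, with medians of 0.19, 0.14 and -0.24. Of all genes, 49.2%, 56.3% and 34.6% were called in these contrasts. APC, its scaffold, rose 2.73-fold in KD_OE against KD_NC (1.45 ± 0.140, edgeR adjusted p = 1.09e-07) and 2.94-fold against NC_NC (1.56 ± 0.142, adjusted p = 2.61e-08). AXIN1, the other scaffold, was 1.58-fold lower in KD_OE than in NC_NC and 1.39-fold lower in KD_NC than in NC_NC. GSK3B, a kinase of the complex, was 155 ± 8.14 CPM in KD_OE libraries, 184 ± 18.6 CPM in KD_NC libraries and 119 ± 5.73 CPM in NC_NC libraries, and was higher than in NC_NC in both other groups (1.299-fold in KD_OE and 1.55-fold in KD_NC). It was lower in KD_OE than in KD_NC (-0.25 ± 0.0901, edgeR adjusted p = 0.0267), a call lost in 5 of 12 alternatives.

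Most other endothelial markers were at or near 0 in every library. Without CDH5, 13 of 17 markers were under 1 CPM in every library, and the summed level of the 17 ran from 32.5 to 41.9 CPM in KD_OE libraries, from 41.6 to 59.5 CPM in KD_NC libraries and from 53.4 to 57.2 CPM in NC_NC libraries. Most of that sum was EGFL7, at 26.9 ± 5.55 CPM in KD_OE libraries, 41.8 ± 8.60 CPM in KD_NC libraries and 42.6 ± 0.919 CPM in NC_NC libraries. The defining endothelial markers KDR and EMCN had 0 counts in all 9 libraries, which allows up to 0.203 CPM in a library, and PECAM1 and CLDN5 had 11 counts each over all 9. VWF was 2.61 ± 0.295 CPM in KD_OE libraries, 2.44 ± 0.354 CPM in KD_NC libraries and 5.67 ± 0.564 CPM in NC_NC libraries. Of 9 fibroblast markers 2 passed the filter on low counts, and the 9 summed to 14.4 to 16.7 CPM in KD_OE libraries, 11.8 to 14.3 CPM in KD_NC libraries and 9.54 to 11.3 CPM in NC_NC libraries. Of 9 blood and immune markers 1 passed (CD14), and the 9 summed to 5.68 to 9.06 CPM in KD_OE libraries, 18.9 to 25.4 CPM in KD_NC libraries and 14.7 to 18.6 CPM in NC_NC libraries, highest in the group where CDH5 was highest. The part of these marker genes in the CDH5 level was not tested.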

How the data were processed

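Gene expression was measured by bulk RNA sequencing in 9 FaDu libraries, 3 in each of 3 groups taken from the labels. The authors deposited a table of unnormalised counts with 58735 genes. The tools in the submitters' processing notes are featureCounts 1.5.0-p3, HISAT2 2.0.5 and StringTie 1.3.3b, whose roles are not stated, with build hg19; the deposited coordinates matched GENCODE v29 on GRCh38 for 58735 of 58735 genes. The NEBNext Ultra kit named in the labels' protocols does not mark strand, so a gene and its antisense partner could not be told apart.

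The analysis used edgeR 4.0.16 (R 4.3.3): filterByExpr (at least 10 counts, by group) kept 16812 genes, libraries were TMM-scaled, and the 9 libraries entered 1 quasi-likelihood fit with a coefficient for each group. Calls were made at a Benjamini-Hochberg adjusted p under 0.05 across the 16812 genes. SE is the absolute log2 fold change over the square root of F. TPM used the deposited gene length, which joins all exons, and was not TMM-scaled. The same steps were tested on simulated data with known folds.

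The members, gene lists and tests were chosen with earlier results of these data known. Named genes were the members, AMIGO2, CAPN2, genes from the up to 3 risen and 3 fallen per pathway list and contrast by adjusted p, and the 5 (CDH5) or 3 (other members) protein-coding genes with a mean of at least 5 CPM nearest in pattern. Not every gene so ranked is described: ESRP2 and GSK3A, for example, are not. Some genes of the lists are named outside this rule, among them OVOL2, ERG, SNAI2, TWIST1, ZEB1, ZEB2 and ADAM10. A gene of the junction list is not reported here and is left out of that list's counts. Marker genes come from the listed cell type markers. Alternatives used DESeq2 1.42.0, upper-quartile factors, no filter, only the groups compared, a replicate block, a GC content and length correction, and each library left out.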

Additional observations from a re-analysis of the deposited data

How the results depend on the processing

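The 12 alternatives per contrast kept the side of the threshold for the tested members except CDH3 in KD_OE against KD_NC and CTNNB1 in KD_OE against NC_NC; the cause was not tested. CDH3 lost its call with no filter on low counts (0.17, adjusted p = 0.217), with only the groups compared in the edgeR fit (0.21, adjusted p = 0.0924) and with the replicate block (0.21, adjusted p = 0.0659), and ran from 0.15 to 0.23 when each library was left out (adjusted p from 0.0212 to 0.171). CTNNB1 lost its call with upper-quartile factors (-0.12, adjusted p = 0.2001) and ran from -0.25 to -0.22 when each library was left out (adjusted p from 0.0420 to 0.0792). In KD_NC against NC_NC, CDH3 moved to 0.27 with the GC content and length correction and CTNNA1 to 0.028 with upper-quartile factors. With the longest coding transcript as length, CDH5 per 100 CDH1 was 2.64 in KD_OE and 11.3 in KD_NC libraries, and CDH2 per 100 CDH1 was 2.69 in KD_OE libraries. Per cadherin transcript, that length gave 0.365, 0.444 and 0.657 for CTNND1, 0.291, 0.459 and 0.486 for CTNNB1 and 0.435, 0.517 and 0.624 for CTNNA1 in KD_OE, KD_NC and NC_NC libraries. The GC content and length correction changed the sign of 4 other values. ADAM10 in KD_OE against KD_NC went from 0.39, which was called, to -0.039, which was not (edgeR adjusted p = 0.598). The rest were not called before the correction and were called after it. CSNK1A1 went from 0.15 to -0.21 and KRT17 from -0.09 to 0.23 in KD_OE against NC_NC. EGFL7 went from -0.03 to 0.23 in KD_NC against NC_NC. Upper-quartile factors shifted the median of all genes by 0.103 in KD_OE against NC_NC and moved the share of higher calls there to 57.9%, against 49.6% with TMM factors. Same-numbered replicates did not pair: their deviations from group means correlated between -0.111 and 0.063. With the replicate block 7912 genes were called in KD_OE against KD_NC, 9149 in KD_OE against NC_NC and 5376 in KD_NC against NC_NC, and no other tested member changed its call.

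Groups of 3 libraries limit the precision, and 1 shared estimate of spread serves groups whose replicates differ in spread.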
